A study of Mus musculus with 12 samples.

Results

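Serpins are protease inhibitors that trap their target protease in a suicide reaction: the protease cuts an exposed loop of the serpin, and the complex then folds into an inactive form. Macrophages make serpins that are secreted and act in plasma or tissue fluid, and serpins of the ovalbumin clade (Serpinb) that stay mostly in the cytosol and guard the cell against leaked granule or lysosomal proteases. The 6 genes described here were a given list and cover both kinds: Serpina3f and Serpina3g of the mouse Serpina3 locus, the cytosolic Serpinb2, Serpinb6a and Serpinb9, and the secreted C1 inhibitor Serping1. They were 6 of 24562 genes in the deposited count table and 6 of the 64 genes whose symbol starts with Serpin. Where a gene had several RefSeq rows, the row with the highest mean count was used, which was the case for Serpina3f (3 rows), Serpinb2 (2 rows) and Serpinb6a (4 rows).

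RNA-seq had been done on peritoneal macrophages, phagocytes of the abdominal cavity, from female mice, in 4 groups of 3 libraries. The groups were high-fat diet (HFD) with 24 h of lipopolysaccharide (LPS), chow with 24 h of LPS, HFD at 0 h, and chow at 0 h. LPS is the bacterial outer-membrane component sensed by Toll-like receptor 4. Strain, age, length of feeding, LPS dose and whether LPS was added in culture were not stated in the labels. No group in the labels had 24 h without LPS, so LPS and time cannot be told apart. Nothing in the labels ties a library to its own animal, so p-values measure only how these samples vary, and that variation may be technical. The shallowest library, HFD 0 h replicate 3, held 2360244 counts, the next 9135057, and the deepest, HFD 24 h replicate 3, 20688308. HFD 24 h replicate 1 and all 3 libraries of chow 24 h were labelled with lane 8 (the lane tag), and no other library was. Within chow the tag and LPS coincide and cannot be told apart. All 10 macrophage markers of the list, among them Csf1r and Cd68, were above 0 in every library. Of 11 neutrophil markers, S100a9, Ly6g, Mpo, Elane and Ngp had 8 counts or fewer in each group, while S100a8, Mmp8 and Retnlg made up most of the summed level of the list, which was 42.7 to 61.2 CPM in HFD 24 h, 54.8 to 84.3 CPM in chow 24 h, 30.6 to 48.8 CPM in HFD 0 h and 35.5 to 42.7 CPM in chow 0 h. S100a8 averaged 24.2 ± 6.72 CPM in HFD 24 h against 12.3 ± 1.08 CPM in HFD 0 h, and 34.3 ± 14.8 CPM in chow 24 h against 8.99 ± 0.87 CPM in chow 0 h (SD, n = 3 each). Of the 4 neutrophil markers that passed the filter on low counts, S100a8 was called higher with LPS in both diets, Cxcr2 lower in chow, and Mmp8 and Retnlg in neither direction. Of those too low to be tested, Camp had 35 counts in HFD 24 h and 0 in HFD 0 h. In chow Camp had 39 counts at 24 h and 4 at 0 h. Ltf went the other way, with 3 counts in HFD 24 h and 17 in HFD 0 h. In chow Ltf had 2 counts at 24 h and 22 at 0 h. The part of neutrophils in the results was not tested.

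All 6 serpins passed the filter on low counts and all 6 changed with LPS in both diets, 5 of them upward and 1, Serpinb6a, downward. Over all 12641 genes tested, 24.6% passed the same test in HFD (12.7% higher and 12% lower) and 26.6% in chow (13.7% higher and 12.9% lower). The test was edgeR's quasi-likelihood test with Benjamini-Hochberg adjustment over all genes tested, with an adjusted p under 0.05 as the threshold, and this is the adjusted p given throughout. The median log2 fold change of the 6 genes was 3.54 in HFD and 3.97 in chow, against 0.00 over all genes in each diet. The 6 genes were chosen with earlier results of these data known, so these values cannot be read as an excess over all genes. Serpina3f, with 0 counts in both groups at 0 h, passed the filter only through its 24 h libraries. Levels are in CPM, the read counts relative to the scaled library total. No serpin of the list passed the test between diets, and the values behind that are given at the end.

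**Figure D1:**
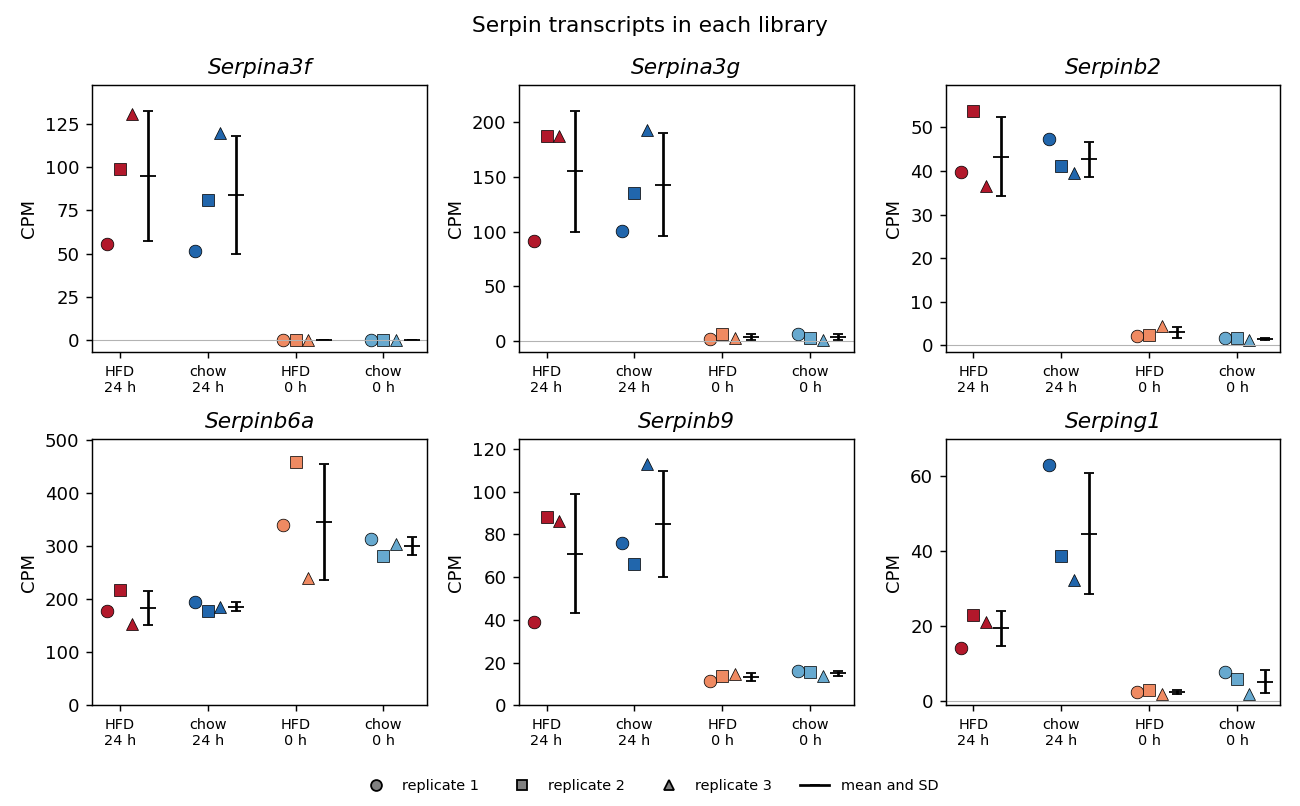
Each panel plots 1 serpin gene: the y axis is CPM on a linear scale, the x axis the 4 groups, points are libraries and the black bars are the mean and SD of 3 libraries. Serpina3f sits at 55.9 to 130 CPM in HFD 24 h and 51.4 to 119 CPM in chow 24 h and at 0 in all 6 libraries at 0 h, while Serpinb6a is the only gene of the 6 that is lower at 24 h than at 0 h in both diets.

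A promoter window of each of 4 serpins is shown because these genes rose together and each window holds a motif match. The motifs are those of LPS- or interferon-driven transcription factor families and the TATA box. Sequences are RefSeq windows of GRCm38.p6, the 250 bases before an annotated start, 5′ to 3′ on the gene's strand, with motif matches in capitals.
Serpina3f, chr12:104214294-104214543, + strand: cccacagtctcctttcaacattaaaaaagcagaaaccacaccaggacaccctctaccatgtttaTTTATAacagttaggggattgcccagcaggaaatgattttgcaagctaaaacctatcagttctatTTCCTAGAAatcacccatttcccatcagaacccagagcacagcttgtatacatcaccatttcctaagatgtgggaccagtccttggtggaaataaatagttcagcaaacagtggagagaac
Serpina3g, chr12:104235897-104236146, + strand: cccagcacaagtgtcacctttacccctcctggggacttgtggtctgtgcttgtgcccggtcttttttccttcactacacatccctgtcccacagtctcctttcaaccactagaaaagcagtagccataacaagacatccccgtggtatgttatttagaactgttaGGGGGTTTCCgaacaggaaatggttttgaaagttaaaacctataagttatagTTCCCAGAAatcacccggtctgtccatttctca
Serpinb9, chr13:33004291-33004540, + strand: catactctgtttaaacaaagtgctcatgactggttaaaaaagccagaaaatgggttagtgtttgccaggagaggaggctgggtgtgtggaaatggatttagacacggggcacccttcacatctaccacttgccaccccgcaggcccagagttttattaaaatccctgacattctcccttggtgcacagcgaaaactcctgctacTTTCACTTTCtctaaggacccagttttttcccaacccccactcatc
Serpinb2, chr1:107511173-107511422, + strand: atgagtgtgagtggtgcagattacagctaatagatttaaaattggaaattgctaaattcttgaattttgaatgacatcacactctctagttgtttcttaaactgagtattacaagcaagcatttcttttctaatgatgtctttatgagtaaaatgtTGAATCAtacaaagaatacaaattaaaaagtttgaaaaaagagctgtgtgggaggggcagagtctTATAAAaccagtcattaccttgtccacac
In the Serpina3f window the capitals mark a TATA box on the opposite strand (-186 to -181) and a GAS element, the STAT-binding motif, at -121 to -113. The Serpina3g window holds a GAS element at -33 to -25 and an NF-kB consensus at -85 to -76. The Serpinb9 window holds an ISRE core, the interferon-stimulated response element, on the opposite strand at -46 to -37. The Serpinb2 window holds an AP-1 site at -94 to -88 and a TATA box at -29 to -24. Motifs were searched on both strands as TTCNNNGAA for the GAS element and a pair of GAAA with 2 bases between them for the ISRE core. The patterns were TGANTCA for the AP-1 site, TATAAA for the TATA box and GGGRNNYYCC for the NF-kB consensus. In these N is any base, R is A or G, and Y is C or T. Among 32851 promoter windows of the same length, 7.02% held a GAS element, 2.98% an ISRE core, 6.75% an AP-1 site, 7.25% an NF-kB consensus and 12.4% a TATA box. For Serpina3f, Serpinb2 and Serpinb6a the windows searched cover a pair of annotated starts each. The Serpina3f and Serpinb2 windows printed above are those of the start that the counted row uses. The gene spans of Serpinb2 and Serpinb9 begin farther upstream, at chr1:107500892 and chr13:32997061, and no window there was searched. The window of the other Serpina3f start (chr12:104214383-104214632) held the same GAS element, at -210 to -202. The window of the other Serpinb2 start (chr1:107511260-107511509) held the same AP-1 site and TATA box, at -181 to -175 and -116 to -111, and a GAS element at -77 to -69. For Serpinb6a the window of the start that the counted row uses (chr13:33936084-33936333, - strand) held none of the 5 motifs, and the window of the other start (chr13:34002795-34003044, - strand) held an ISRE core on the opposite strand at -84 to -75 that overlaps a GAS element at -77 to -69. These matches are letters in a window and show no binding.

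Serpina3f and Serpina3g lie next to each other on chromosome 12, in a mouse locus of many Serpina3 copies that corresponds to human SERPINA3, which encodes alpha-1-antichymotrypsin. Serpina3f (NM_001168294, chr12:104214544-104221129, + strand) was the gene with the sharpest contrast. Its level was 55.9, 98.7 and 130 CPM in the 3 HFD 24 h libraries and 51.4, 80.9 and 119 CPM in the 3 chow 24 h libraries, with 0 counts in all 6 libraries at 0 h. The groups did not overlap, and within each diet the 24 h libraries were widely spread. Against the limit that 0 counts allow, 3 counts over the group, Serpina3f was at least 704-fold higher in HFD 24 h than in HFD 0 h and at least 1057-fold higher in chow 24 h than in chow 0 h, and the bound in HFD is set by the shallower 0 h libraries. The adjusted p was 1.01e-05 in HFD and 4.46e-06 in chow. In single libraries 3 counts correspond to 0.312 to 1.35 CPM in HFD 0 h and 0.238 to 0.249 CPM in chow 0 h, so a lower level at 0 h would not have been detectable.

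Serpina3g (NM_009251, chr12:104236147-104241939, + strand) encodes a serpin known in mouse to inhibit cysteine cathepsins inside the cell. It had 91.5, 187 and 187 CPM in HFD 24 h and 100, 135 and 193 CPM in chow 24 h. At 0 h it had 1.67, 6.34 and 2.70 CPM in HFD and 6.42, 2.35 and 0.998 CPM in chow. Unlike its neighbour it was detected in each library at 0 h, with 79 counts over HFD 0 h and 122 over chow 0 h, and every 24 h library lay above every 0 h library. The gene rose by a log2 fold change of 5.36 ± 0.59 (SE, adjusted p = 1.40e-05) in HFD and 5.44 ± 0.56 (adjusted p = 6.62e-06) in chow. The size of this change rested on the 0 h libraries with the most Serpina3g: it was 6.35 without HFD 0 h replicate 2 and 6.42 without chow 0 h replicate 1. When the lane tag was added as a covariate, the change in chow was 6.48. Within chow the tag and LPS coincide, so that fit takes the effect of the tag from the tagged HFD 24 h library alone.

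The level of Serpina3g per kilobase of transcript was 1.79 to 2.37 times that of Serpina3f in HFD 24 h and 2.02 to 2.44 times in chow 24 h, ranges that overlap. Their transcripts share sequence: 6% of the 50-base windows of Serpina3f also occur in Serpina3g, and 10.7% occur in some other gene, while 16% of the windows of Serpina3g occur in some other gene, most often Serpina3h (8.67%). How the authors' counter placed reads from such windows was not stated, so part of each count may belong to a relative. At 0 h the libraries held 6 to 57 counts of Serpina3g in HFD and 12 to 81 in chow beside 0 counts of Serpina3f.

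Most of the Serpina3 locus was at or near 0. Of its 11 genes in the table, 5 had 0 counts in all 12 libraries and 4 passed the filter: Serpina3f, Serpina3g, Serpina3i and Serpina3n. Serpina3n, a secreted inhibitor known as an acute-phase gene of the mouse liver, averaged 1.45 ± 0.51 CPM in HFD 24 h, 2.82 ± 1.61 CPM in chow 24 h, 1.03 ± 0.67 CPM in HFD 0 h and 0.727 ± 0.401 CPM in chow 0 h (SD, n = 3 libraries each). It rose in chow by 1.93 ± 0.59 (adjusted p = 0.0211) and had a log2 fold change of 0.82 ± 0.66 in HFD (adjusted p = 0.417). Serpina3i, which shares 6.1% of the Serpina3g windows, averaged 0.899 ± 0.347 CPM in HFD 24 h and 0.884 ± 0.124 CPM in chow 24 h, and its log2 fold changes of 2.22 ± 0.86 in HFD (adjusted p = 0.0707) and 1.98 ± 0.74 in chow (adjusted p = 0.0581) missed the threshold. Across the 25 Serpina genes of chromosome 12, 16 had 0 counts in all libraries, and the liver-type alpha-1-antitrypsin genes belong to this cluster.

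**Figure D2:**
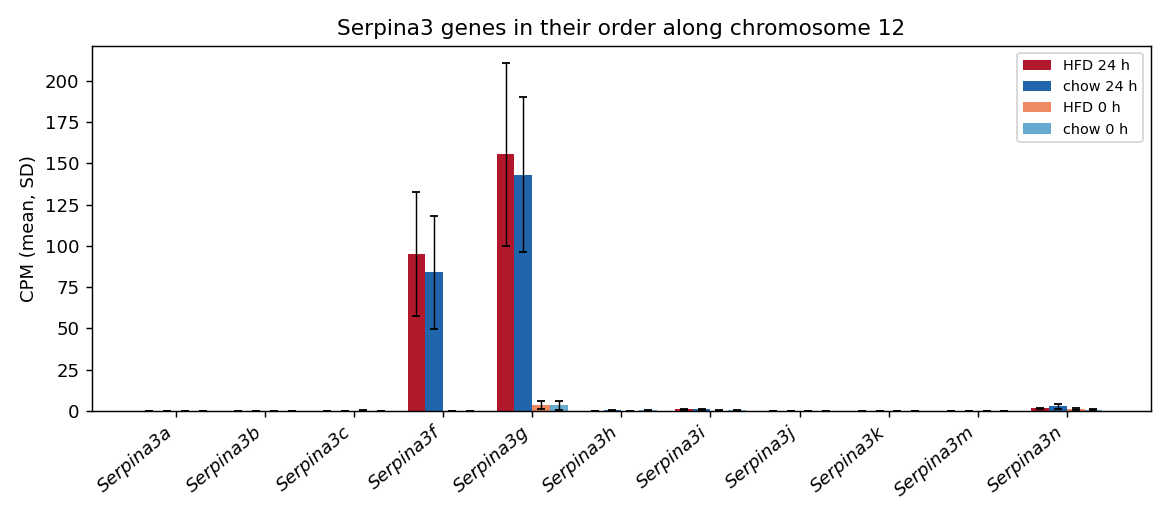
Mean CPM (y axis, linear from 0, bars with SD of 3 libraries) of the 11 Serpina3 genes in their order along the chromosome (x axis), in HFD 24 h, chow 24 h, HFD 0 h and chow 0 h. Serpina3g reaches 155 CPM in HFD 24 h and 143 CPM in chow 24 h and its neighbour Serpina3f 94.99 and 83.9 CPM in those groups, while Serpina3i and Serpina3n stay under 3 CPM on average.

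The cathepsins give the context for Serpina3g. Ctsb, the lysosomal protease cathepsin B, averaged 12209 ± 1232 CPM in HFD 24 h against 17066 ± 2089 CPM in HFD 0 h, and 11680 ± 555 CPM in chow 24 h against 15649 ± 999.8 CPM in chow 0 h (SD, n = 3 each). It fell by 0.48 on the log2 scale in HFD (SE 0.13, adjusted p = 0.0104) and by 0.42 in chow (SE 0.13, adjusted p = 0.0222). Ctsc, which encodes the dipeptidyl peptidase that activates granule serine proteases, rose by 2.27 ± 0.16 in HFD (adjusted p = 9.62e-09) and 1.97 ± 0.16 in chow (adjusted p = 4.44e-08). In a list of 26 proteases that serpins are known to inhibit or that act in the same pathways, 18 passed the filter. Of these, 7 rose and 1 fell in HFD, and 8 rose and 1 fell in chow, with a median log2 fold change of 0.66 in HFD and 0.88 in chow.

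Serpinb9 (NM_009256, chr13:32997061-33017955, + strand) is the cytosolic inhibitor of granzyme B, the death-inducing protease of cytotoxic lymphocytes, and is known from antigen-presenting cells as well as lymphocytes. It had 39.0, 88.0 and 86.1 CPM in HFD 24 h and 76.0, 66.1 and 113 CPM in chow 24 h, against 11.3, 13.8 and 14.8 CPM in HFD 0 h and 16.1, 15.5 and 13.9 CPM in chow 0 h. The 0 h libraries were tight, the 24 h libraries were spread, and the lowest 24 h library still lay above each 0 h library. Serpinb9 rose by 2.45 ± 0.29 in HFD (adjusted p = 8.60e-06) and 2.49 ± 0.27 in chow (adjusted p = 3.48e-06). When the lane tag was added as a covariate, the change in chow was 3.65 ± 0.35, and in HFD 24 h the tagged library, replicate 1, was the low one. The fit takes the effect of the tag from that library alone.

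Granzyme transcripts were present at a low level after LPS. Gzmb, the target of Serpinb9, had 94 counts over the HFD 24 h libraries and 115 over the chow 24 h libraries, against 1 count in HFD 0 h and 0 in chow 0 h. In chow this is at least 35.6-fold higher at 24 h (adjusted p = 0.000126), and the mean level was 1.76 ± 1.49 CPM in HFD 24 h and 2.88 ± 1.32 CPM in chow 24 h (SD, n = 3 each). Of the 13 T and NK cell markers in the table, which include Gzmb, Gzma and the perforin gene Prf1, 7 passed the filter and 3 rose in each diet. Their summed level was 7.20 to 18.8 CPM in HFD 24 h, 11.4 to 17.2 CPM in chow 24 h, 5.84 to 9.13 CPM in HFD 0 h and 8.27 to 13.4 CPM in chow 0 h. The T cell gene Cd3e averaged 0.582 CPM in HFD 24 h, 0.262 CPM in chow 24 h, 0.104 CPM in HFD 0 h and 0.953 CPM in chow 0 h, with no call by LPS. In bulk RNA a change in the number of cells of a type and a change of RNA per cell cannot be told apart, and the part of lymphocytes in the Serpinb9 level was not tested.

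Serpinb2 (NM_001174170, chr1:107500892-107525600, + strand) encodes plasminogen activator inhibitor 2, a urokinase inhibitor that macrophages are long known to induce with LPS and keep largely inside the cell. It had 39.7, 53.8 and 36.6 CPM in HFD 24 h and 47.3, 41.1 and 39.6 CPM in chow 24 h. Before LPS it had 2.19, 2.34 and 4.50 CPM in HFD and 1.74, 1.62 and 1.16 CPM in chow. Among the 5 serpins that rose, its 24 h libraries were the most alike, with an SD of 9.15 CPM around a mean of 43.3 in HFD and 4.08 CPM around 42.7 in chow. It rose by 4.06 ± 0.25 in HFD (adjusted p = 2.49e-09) and 4.81 ± 0.25 in chow (adjusted p = 2.10e-10). The second RefSeq row of Serpinb2 had ratios of group means of 3.91 in HFD and 4.78 in chow on the log2 scale, beside 3.85 and 4.82 for the row used. No 50-base window of the counted transcript occurred in another gene. Serpinb10, annotated with 291 exon bases in common on the same strand, had 0 counts in both HFD groups and 2 in each chow group.

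Other genes of the plasminogen system changed in the same samples. Of the 11 on the list, 9 passed the filter, 4 rose and 1 fell in each diet, with a median log2 fold change of 0.58 in HFD and 0.94 in chow. The target of Serpinb2, urokinase (Plau), rose by 0.93 ± 0.15 in HFD (adjusted p = 0.000124) and 0.94 ± 0.15 in chow (adjusted p = 0.000100). The plasminogen-binding genes went both ways: Eno1 rose by 1.24 ± 0.18 in HFD (adjusted p = 5.26e-05) and 1.13 ± 0.18 in chow (adjusted p = 0.000115), and Anxa2 fell by 0.47 in HFD (adjusted p = 0.00592) and by 0.58 in chow (adjusted p = 0.00104). Plasminogen itself (Plg), a liver product, had 0 counts in all 12 libraries.

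Serpinb6a (NM_001164118, chr13:33917918-34002794, - strand) encodes a broad cytosolic inhibitor whose best known target is the neutrophil protease cathepsin G. It was the one serpin of the list that fell. It had 178, 217 and 154 CPM in HFD 24 h against 339, 459 and 241 CPM in HFD 0 h, and 195, 177 and 186 CPM in chow 24 h against 314, 281 and 304 CPM in chow 0 h. In both diets every 24 h library lay below every 0 h library, as did 17.2% of all genes tested in HFD and 22.9% in chow. Serpinb6a fell by 0.93 on the log2 scale in HFD (SE 0.18, adjusted p = 0.00108) and by 0.69 in chow (SE 0.18, adjusted p = 0.00973). In chow the call ended with the lane tag as a covariate (-0.63, adjusted p = 0.283) and without both chow libraries numbered 1 (-0.68, adjusted p = 0.0668). The fit with the lane tag takes the effect of the tag from the tagged HFD 24 h library alone. Within HFD, where 2 of the 3 libraries at 24 h carried no tag, all 6 serpins stayed called without the tagged library. All 4 RefSeq rows moved alike, with log2 ratios of group means between -0.98 and -0.87 in HFD and between -0.73 and -0.66 in chow.

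Despite its fall, Serpinb6a was the most abundant of the 6 serpins per kilobase of transcript on average in every group. Over all its annotated transcripts, the Serpinb6a gene shares 584 exon bases with the antisense gene 1110046J04Rik, 762 with Nqo2 and 241 with Ripk1. Of the 50-base windows of the counted transcript alone, 18.1% occur in 1110046J04Rik and 20.7% in any other gene, on either strand. All 3 overlapping genes are on the opposite strand, and no source used here says whether counting used strand. None of these 3 genes passed the LPS test: log2 fold changes were -0.80 and 0.33 for 1110046J04Rik in HFD and in chow, 0.10 and -0.27 for Nqo2, and 0.16 and 0.08 for Ripk1, with adjusted p of 0.316 or more. 1110046J04Rik averaged between 0.570 and 1.21 CPM over the groups. Cathepsin G (Ctsg) had 0 counts in all 12 libraries, and neutrophil elastase (Elane) had 1 count in HFD 24 h, 3 in HFD 0 h and 0 in both chow groups.

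Serping1 (NM_009776, chr2:84765360-84775444, - strand) encodes C1 inhibitor, the secreted serpin that inactivates C1r and C1s of the classical complement pathway, plasma kallikrein and factor XIIa. It had 14.1, 23.0 and 20.98 CPM in HFD 24 h against 2.19, 2.78 and 1.798 CPM in HFD 0 h, and 63.1, 38.6 and 32.3 CPM in chow 24 h against 7.77, 5.68 and 1.83 CPM in chow 0 h. Every 24 h library lay above every 0 h library, as 18.2% of all genes tested did in HFD and 22.5% in chow. Serping1 rose by 3.03 ± 0.46 in HFD (adjusted p = 0.000134) and 3.13 ± 0.38 in chow (adjusted p = 1.76e-05). When the lane tag was added as a covariate, the change in chow was 3.77. Here too the effect of the tag comes from the tagged HFD 24 h library alone. No 50-base window of its transcript occurred in another gene. No promoter window is shown for Serping1.

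Of the proteases that C1 inhibitor controls, the complement genes C1ra and C1s1 rose with LPS, while plasma kallikrein (Klkb1) and factor XII (F12) were too low to be tested, with 24 counts or fewer in each group. C1ra, which encodes complement C1r, averaged 69.5 ± 9.03 CPM in HFD 24 h against 4.03 ± 1.67 CPM in HFD 0 h, and 64.1 ± 13.4 CPM in chow 24 h against 6.77 ± 0.85 CPM in chow 0 h. It rose by 3.95 ± 0.23 in HFD (adjusted p = 1.28e-09) and 3.24 ± 0.21 in chow (adjusted p = 3.23e-09). C1s1, its partner protease, named here after its values were seen, rose by 2.001 ± 0.338 in HFD (adjusted p = 0.000330) and 1.27 ± 0.31 in chow (adjusted p = 0.00527). Of 15 complement genes that passed the filter, 6 rose and 3 fell in HFD, and 6 rose and 2 fell in chow. Cfb, the alternative pathway protease, rose by 6.26 ± 0.19 in HFD (adjusted p = 9.76e-13) and 4.88 ± 0.17 in chow (adjusted p = 1.10e-11).

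**Figure D3:**
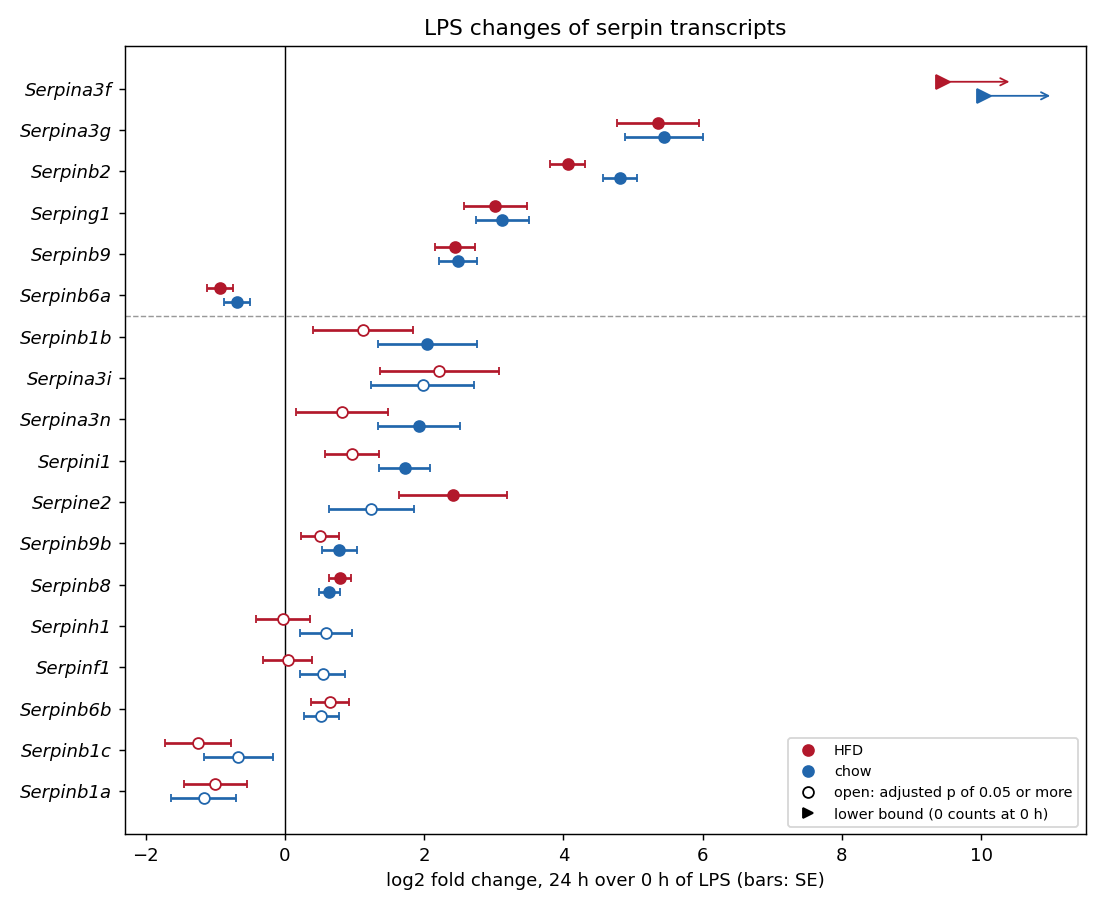
Log2 fold change of 24 h over 0 h of LPS (x axis, bars are SE) of serpins that passed the filter (y axis), with HFD above chow in each row. The 6 serpins of the list are above the dashed line, with Serpina3f drawn at its lower bound, and Serpinb6a is the only filled point left of 0; open points missed an adjusted p of 0.05.

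Of the 58 serpins outside the list, 13 passed the filter. In HFD 3 of them rose and 0 fell, and in chow 6 rose and 0 fell, with a median log2 fold change of 0.79 in HFD and 0.78 in chow. Serpinb8, a cytosolic furin inhibitor, rose in both diets, by 0.79 ± 0.16 in HFD (adjusted p = 0.00110) and 0.64 ± 0.15 in chow (adjusted p = 0.00461). Serpine2, protease nexin 1, rose in HFD by 2.41 ± 0.78, with 5 counts at 0 h (adjusted p = 0.0307), and its value in chow was 1.24 ± 0.61 (adjusted p = 0.155). In chow Serpini1 (1.72 ± 0.36, adjusted p = 0.00168), Serpinb1b (2.05 ± 0.71, adjusted p = 0.0426), Serpinb9b (0.78 ± 0.25, adjusted p = 0.0284) and Serpina3n rose as well. In HFD the values of Serpini1 (0.97 ± 0.39), Serpinb1b (1.12 ± 0.72) and Serpinb9b (0.51 ± 0.27) missed the threshold. Serpinb6b, a relative of Serpinb6a, had 0.65 ± 0.27 in HFD (adjusted p = 0.0931) and 0.52 ± 0.25 in chow (adjusted p = 0.1398). The elastase inhibitor Serpinb1a had -0.999 ± 0.454 in HFD and -1.17 ± 0.46 in chow, and its copy Serpinb1c -1.25 ± 0.48 and -0.67 ± 0.49, none past the threshold. Serpinf1 (0.04 ± 0.35 in HFD, 0.54 ± 0.32 in chow) and the collagen chaperone Serpinh1 (-0.03 ± 0.39 and 0.59 ± 0.38) also missed it.

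The Serpinb genes of the list sit in a pair of clusters. Of 15 serpins on chromosome 13, 7 passed the filter and 7 had 0 counts in all libraries, and of 12 Serpinb genes on chromosome 1, 2 passed and 7 had 0 counts in all libraries. The copies Serpinb9c, Serpinb9d, Serpinb9e, Serpinb9f and Serpinb9g, Serpinb6d and Serpinb6e were all at 0 in each library, and of their families Serpinb9b and Serpinb6b passed the filter beside Serpinb9 and Serpinb6a. Of the 50-base windows of Serpinb9, 0.388% also occur in Serpinb9b. Taking all serpins with a known transcript length, the 6 genes made up 64.3% to 74.2% of the summed level per kilobase in HFD 24 h, 55.3% to 72.2% in chow 24 h, 67.03% to 79.1% in HFD 0 h and 61.3% to 75.5% in chow 0 h.

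Inhibitors of other families changed in the same samples. Of 10 cystatins, TIMPs and related inhibitors that passed the filter, 3 rose and 2 fell in HFD, and 4 rose and 1 fell in chow. Cst7, a cystatin of lysosomes, rose by 6.47 ± 0.58 in HFD and 5.24 ± 0.42 in chow, and Slpi, a secreted elastase inhibitor, by 2.49 ± 0.23 in HFD and 2.34 ± 0.21 in chow. The metalloprotease inhibitor Timp1 rose by 3.41 ± 0.32 in HFD and 3.71 ± 0.30 in chow, while Timp2 fell by 1.40 in HFD and by 1.52 in chow. The adjusted p of these 4 genes was 2.37e-06 or less in both diets.

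Levels of different genes can be compared only per length of transcript. In HFD 24 h the order of mean levels, in CPM per kilobase, was Serpinb6a (111), Serpina3g (86.2), Serpina3f (42.3), Serpinb2 (22), Serpinb9 (20.9) and Serping1 (10.9), and each overlapped its neighbour in that order over the 3 libraries. In chow 24 h it was Serpinb6a (113), Serpina3g (79.3), Serpina3f (37.3), Serping1 (25.3), Serpinb9 (25.0) and Serpinb2 (21.7). There the first 2 genes did not overlap their next neighbour and the last 4 overlapped. The first gap was narrow, with 107.27 in the lowest library of Serpinb6a and 107.19 in the highest of Serpina3g. In HFD 0 h Serpinb6a stood alone at 209, followed by Serpinb9 (3.92), Serpina3g (1.98), Serpinb2 (1.53), Serping1 (1.28) and Serpina3f (0). In chow 0 h Serpinb6a stood alone at 181, followed by Serpinb9 (4.46), Serping1 (2.88), Serpina3g (1.81), Serpinb2 (0.766) and Serpina3f (0). At 0 h, in both diets, Serpinb6a and Serpina3f stood clear of the rest and each of the 4 genes between them overlapped its neighbour.

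The genes whose log2 CPM ran most like each serpin over the 12 libraries are given as a description, by Pearson's r, and all 12 points share the division into 0 h and 24 h. For Serpina3f they were Gbp2 (0.999) and Herc6 (0.997), and for Serpina3g Iigp1 (0.992), Gbp9 (0.988) and Ly6c2 (0.985). For Serpinb9 they were Gbp10 (0.990), Slfn8 (0.989) and Zup1 (0.989), and for Serpinb2 Tap2 (0.993), Socs1 (0.993) and Nlrc5 (0.989). These lists hold guanylate-binding proteins and antigen-processing genes, which as background are known interferon-stimulated genes. Serpinb6a ran most like the iron exporter gene Slc40a1 (0.974), Ctsb (0.967) and Cd5l (0.964), which all fell with LPS in both diets. Serping1 ran most like Zwint (0.972), Vcan (0.972) and P4ha1 (0.972), which rose in both diets, and Vcan and P4ha1 are genes of the extracellular matrix and of collagen processing.

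The diet comparison asks whether HFD macrophages differ from chow macrophages before and after LPS. No serpin of the list passed the edgeR test at 24 h, at 0 h or for the diet by LPS interaction, and DESeq2 and limma-voom called none either. At an unadjusted p under 0.05 there were 1 of 6 at 24 h (Serping1), 2 of 5 at 0 h (Serpinb2 and Serping1) and 0 of 5 for the interaction. The share of all genes tested with an unadjusted p under 0.05 is not given here. Such counts, here and below, therefore cannot be read as an excess. Few genes of any kind passed the adjusted threshold: 0.00791% of all genes tested at 24 h, 0.087% at 0 h and 0% for the interaction. Serpina3f, at 0 counts in both groups at 0 h, could be compared between diets only at 24 h.

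Serping1 had the widest diet difference of the 6 at 24 h. Its 3 HFD 24 h libraries, at 14.1 to 23.0 CPM, all lay below its 3 chow 24 h libraries, at 32.3 to 63.1 CPM, as 5.98% of all genes tested did (6.28% lay above). Means were 19.4 ± 4.68 CPM in HFD and 44.7 ± 16.3 CPM in chow (SD, n = 3 each), and the log2 fold change was -1.20 ± 0.34 with an unadjusted p of 0.00338 and an adjusted p of 0.403. Within the lane tag, HFD 24 h replicate 1 had 14.1 CPM, below the 3 tagged chow libraries. At 0 h Serping1 had 2.26 ± 0.50 CPM in HFD and 5.09 ± 3.01 CPM in chow, groups that overlapped, from 50 and 190 counts (log2 fold change -1.10 ± 0.49, unadjusted p 0.0399, adjusted p = 0.794). Without chow 0 h replicate 1 that value was -0.66, and without chow 24 h replicate 1 the value at 24 h was -0.87. The diet by LPS interaction was -0.10 ± 0.62 (adjusted p = 0.9998).

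Serping1 is also made by fibroblasts, so its levels are set beside the summed CPM of 10 stromal markers, among them Col1a1 and Pdgfra, of which 9 or 10 were above 0 in each library. That sum was 1138, 1168 and 1038 in HFD 24 h replicates 1 to 3 and 3197, 2241 and 1089 in chow 24 h replicates 1 to 3. It was 740, 1024 and 1474 in HFD 0 h and 2609, 1428 and 831 in chow 0 h. In each chow group the library with the higher stromal sum also had more Serping1, an order that the HFD groups did not show. The HFD 24 h sums spanned only 1038 to 1168. The HFD 0 h libraries held 21, 25 and 4 counts of Serping1, the last in the shallowest library. The order in HFD therefore carries little information. Chow 24 h replicate 3, whose stromal sum lay within the HFD 24 h range, had 32.3 CPM of Serping1, above the HFD 24 h libraries. Of the 9 stromal markers that passed the filter none passed the diet test at 24 h in edgeR, DESeq2 or limma-voom, 6 had an unadjusted p under 0.05, and the median log2 fold change was -0.88. With LPS, 0 of the 9 rose in HFD (1 with an unadjusted p under 0.05) and 2 rose in chow, with medians of 0.12 and 0.32. Stromal cells' part in the diet difference of Serping1 was not tested beyond these values. Of the serpins outside the list, Serpinf1 (-1.19 ± 0.32, unadjusted p 0.00212, adjusted p = 0.342) and Serpinh1 (-1.11 ± 0.38, unadjusted p 0.0123, adjusted p = 0.518) had like values between diets at 24 h.

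**Figure D4:**
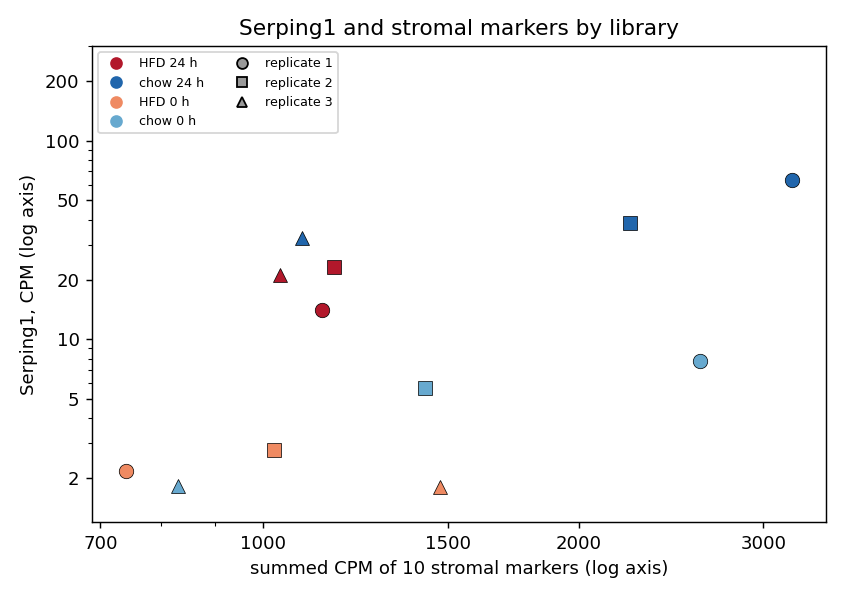
Serping1 in CPM (y axis, log) against the summed CPM of 10 stromal markers (x axis, log), with 1 point per library, colour for the group and shape for the replicate. At 24 h Serping1 is above 14 CPM in every library, at stromal sums of 1038 to 3197, and the point of chow 24 h replicate 3 (32.3 CPM, stromal sum 1089) stands above the HFD 24 h points at about the same stromal sum.

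Serpinb2 stood higher in HFD at 0 h. The HFD 0 h libraries, with 2.19, 2.34 and 4.50 CPM, all lay above the chow 0 h libraries, with 1.74, 1.62 and 1.16 CPM, as 5.87% of all genes tested did (6.35% lay below). These levels rest on 21, 21 and 10 counts in HFD and 22, 20 and 14 counts in chow, and the highest CPM came from the shallowest library of the series. The log2 fold change was 0.77 ± 0.32 (unadjusted p 0.0258, adjusted p = 0.714), and without HFD 0 h replicate 3 it was 0.57. At 24 h the groups were 43.3 ± 9.15 CPM in HFD and 42.7 ± 4.08 CPM in chow, a log2 fold change of 0.02 ± 0.18 (adjusted p = 0.988). The interaction was -0.75 ± 0.36 (unadjusted p 0.0559, adjusted p = 0.9998).

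The other 4 serpins overlapped between diets at both times. At 24 h Serpina3f averaged 94.99 ± 37.4 CPM in HFD and 83.9 ± 34.1 CPM in chow (log2 fold change 0.18 ± 0.35), and Serpina3g 155 ± 55.3 CPM in HFD and 143 ± 46.9 CPM in chow (0.12 ± 0.43). Serpinb9 averaged 71.0 ± 27.8 CPM in HFD and 84.9 ± 24.6 CPM in chow (-0.26 ± 0.25), and Serpinb6a 183 ± 31.8 CPM in HFD and 186 ± 8.86 CPM in chow (-0.03 ± 0.18). For these genes the difference was smaller than the spread within a diet, and adjusted p ran from 0.874 to 0.987. At 0 h the log2 fold changes were 0.20 ± 0.67 for Serpina3g, 0.21 ± 0.18 for Serpinb6a and -0.22 ± 0.29 for Serpinb9. When the lane tag was added, the values at 24 h were -0.59 ± 0.39 for Serpina3f, -0.64 ± 0.54 for Serpina3g and -1.12 ± 0.26 for Serpinb9, the last with an adjusted p of 0.539. That fit takes the effect of the tag from HFD 24 h replicate 1 against the other HFD 24 h libraries, the tagged one of which was the lowest of its group for Serpina3f, Serpina3g, Serpinb9 and Serping1.

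**Figure D5:**
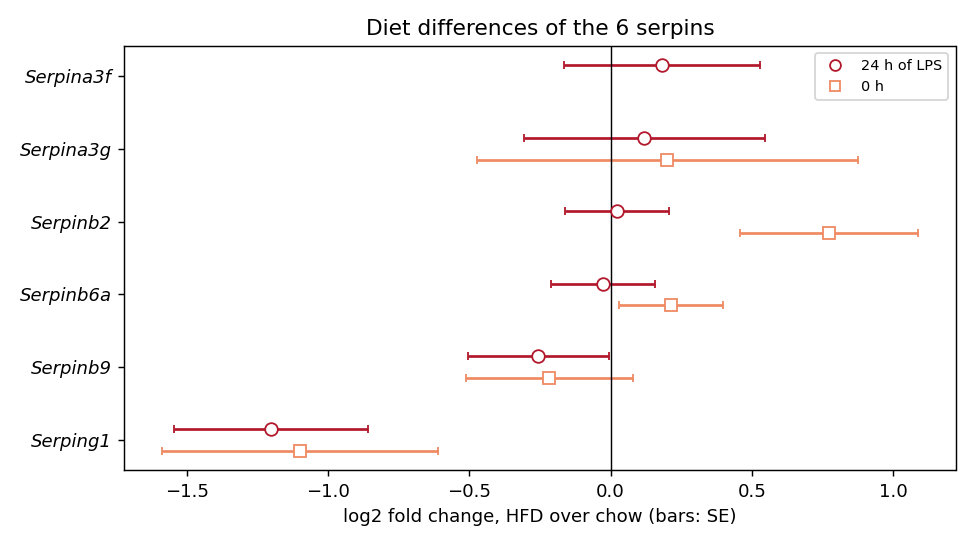
Log2 fold change of HFD over chow (x axis, bars are SE) of the 6 serpins (y axis) at 24 h (circles) and at 0 h (squares), with no value for Serpina3f at 0 h, where both groups had 0 counts. All points are open because none passed an adjusted p of 0.05, and Serping1 lies farthest to the left at -1.20 at 24 h and -1.10 at 0 h.

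Outside the list, no other serpin passed the diet test in edgeR, DESeq2 or limma-voom, with 3 of 13 at an unadjusted p under 0.05 at 24 h, 1 of 13 at 0 h and 0 of 13 for the interaction. Among the complement genes, Cfb was lower in HFD at 0 h, at 46.0 ± 7.98 CPM in HFD and 124 ± 19.7 CPM in chow (log2 fold change -1.41 ± 0.16, adjusted p = 0.000984). It was the only one of the 15 complement genes to pass in edgeR, and DESeq2 called 3.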

How the data were processed

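RNA had been isolated from peritoneal macrophages with a Qiagen RNeasy mini kit and made into libraries with the NuGen Ovation Universal RNA-seq kit, per the labels' protocols. The submitters' processing notes name CASAVA 1.8.2, STAR 2.5.2b (a spliced aligner) and mm10. For the counter, its annotation and any use of strand: not given in the sources used here. The deposited table holds the authors' raw counts, not normalized, for 35745 RefSeq rows in 12 columns, each matched to a sample. Rows were named from RefSeq (35440) and GENCODE (188) tables, and 117 stayed unnamed. Each gene was represented by its row with the highest mean, because isoform rows repeat the same reads. Coordinates are RefSeq gene spans on GRCm38.p6, the assembly of mm10.

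Counts were scaled by TMM, filtered by group (filterByExpr), and tested in R 4.3.3 with edgeR 4.0.16 (robust quasi-likelihood fit of 4 group means over all 12 libraries, Benjamini-Hochberg over 12641 genes). SE is the log2 fold change over the square root of F. Folds against groups at 0 used 3 counts over the group. Bounds and floors cover counting error only. Alternatives were other size factors, no filter or 1 CPM in 3 libraries, DESeq2 1.42.0, limma-voom (limma 3.58.1), only the groups compared, a replicate block, the lane tag as a covariate, counts summed over rows, and each library left out. Leaving out both chow libraries numbered 1 was added after seeing the data. The procedure was tested on simulated data.

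The 6 genes and all lists were chosen with earlier results of these data known. Named genes were the 6 serpins, other serpins that passed the filter, up to 4 members per list with the smallest adjusted p, and the 3 genes with the highest Pearson's r of log2 CPM (prior count 2) per serpin. Replicate pairs differed by more than sampling noise, so all 12 libraries were kept. Some genes that these rules select are not reported here, and counts over lists include them.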

Additional observations from a re-analysis of the deposited data

How the results depend on the processing

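All 6 serpins kept their LPS direction in both diets under every alternative run. All 6 also stayed past the threshold, except Serpinb6a in chow with the lane tag or without both chow libraries numbered 1. The fitted fold of Serpina3f, against 0 counts, moved with the tool and is not used. No serpin was called between diets or for the interaction under any alternative. Whether the replicate numbers pair the libraries is not stated in the labels. The deviations of libraries with the same number at 24 h and 0 h within a diet correlated at 0.0293 to 0.346, with 3 of 6 over 0.1, and those of libraries with the same number in HFD and chow at -0.1392 to 0.2128, so the numbers were not used as pairs. With the replicate block 6 serpins were called for LPS in each diet and 0 for diet or interaction, as without it.

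Values without a call changed sign in places. With the lane tag, the diet value at 24 h was -0.59 for Serpina3f, -0.64 for Serpina3g and -0.10 for Serpinb2. Without both chow libraries numbered 1 it was -0.0747 for Serpina3f, -0.0801 for Serpina3g and 0.0077 for Serpinb6a. Leaving out single libraries, the diet value at 24 h ran from -0.12 to 0.54 for Serpina3f, -0.0873 to 0.42 for Serpina3g, -0.17 to 0.14 for Serpinb2, -0.17 to 0.0862 for Serpinb6a and -0.44 to 0.0396 for Serpinb9. At 0 h it ran from -0.79 to 1.16 for Serpina3g and -0.045 to 0.41 for Serpinb6a. The interaction ran from -1.04 to 0.91 for Serpina3g, -0.43 to 0.0184 for Serpinb6a, -0.23 to 0.26 for Serpinb9 and -0.53 to 0.32 for Serping1.

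Genes called over the whole table moved by over 1.5 times in places: 1509 in place of 3357 for LPS in chow with the lane tag, 23, 66 and 18 in place of 11 for diet at 0 h (no filter, DESeq2, replicate block), 10, 41 and 10 in place of 1 for diet at 24 h (no filter, DESeq2, limma-voom), and 3, 9 and 4 in place of 0 for the interaction (no filter, DESeq2, replicate block). Diet differences of 0 h levels rest on few counts: 3 counts are 1.35 CPM in the shallowest library and 0.139 CPM in the deepest.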
